A study of Mus musculus with 21 samples.

Results

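Cirbp and Rbm3, which encode the best known cold-inducible RNA-binding proteins of mammalian cells, were followed in IgA+ plasma cells (PCs) of the mouse small intestine. The members were the rows of the deposited count table named Cirbp or Rbm3, 2 of 53801 genes, and both were among the 20256 genes with at least 10 counts in all. CD138+ IgA+ PCs were sorted by FACS from the small intestine of 21 individual mice on the C57BL/6 background, and each mouse gave 1 poly-A RNA library. Mice were sampled at Zeitgeber time (ZT) 0, when lights come on, or at ZT12, when lights go off. All mice carried floxed Arntl (Arntl fl/fl), the gene of the core clock protein BMAL1. Control mice (Mb1Cre-/-, 6 at ZT0 and 6 at ZT12) kept Arntl, and knockout mice (Mb1Cre+/-, 4 at ZT0 and 5 at ZT12) carried Cre in the Mb1 (Cd79a) locus, which is active from early B cell development on, so Arntl was deleted in the whole B lineage and not in PCs alone. The sample titles gave the genotype here, since in 8 of 9 knockout samples the separate genotype entry lists the alleles of control mice. Age and sex were not given in the labels.

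CIRBP and RBM3 are small proteins with 1 RNA recognition motif followed by a glycine-rich tail, and both are induced by mild cooling, unlike heat shock proteins, which are induced by warming. They bind mRNAs and influence their stability, translation and polyadenylation. In mice, body temperature is lower in the light phase and higher in the dark phase. Both genes, being induced by cooling, are known to run opposite to that rhythm in several tissues. CIRBP binds transcripts of clock genes, Clock among them, and RBM3 is best known for supporting protein synthesis and cell survival in the cold.

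Cirbp (ENSMUSG00000045193) lies on the plus strand at chr10:80165985-80172786 (GRCm38), with 7 annotated transcripts in GENCODE M21, of which 2 are protein-coding and 1 is a target of nonsense-mediated decay. Rbm3 (ENSMUSG00000031167) lies on the minus strand at chrX:8138975-8145880, with 11 transcripts, 6 of them protein-coding and 2 targets of nonsense-mediated decay. Counts were given per gene, so transcripts could not be told apart. The stretch below lies upstream of the Cirbp transcript that starts inside the window (GRCm38.p6, chr10:80167589-80167777, plus strand, 189 bases, 5′ to 3′, from RefSeq). The stretch lies inside the annotated span of the gene, which starts farther upstream at 80165985. It is shown because sequence in front of Cirbp is where a cold-responsive element, the mild cold response element (MCRE, a site described as bound by Sp1), has been described. Capitals mark the MCRE letters and the GC boxes.

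Cirbp upstream stretch: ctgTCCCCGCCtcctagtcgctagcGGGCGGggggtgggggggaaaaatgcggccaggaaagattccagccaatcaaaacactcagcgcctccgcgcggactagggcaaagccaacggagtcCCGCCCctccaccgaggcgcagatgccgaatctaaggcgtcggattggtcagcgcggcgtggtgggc

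Both strands were searched. The MCRE letters TCCCCGCC occurred 1 time, 247 bases before the start site of the RefSeq table, and 2.86% of the 32851 upstream stretches of the same length held them. The GC box GGGCGG occurred 2 times, 225 bases before the start site on the plus strand and 128 bases before it on the minus strand, in no overlap with the MCRE letters, and 22.6% of stretches held 1 or more. The E-box CACGTG, the letters that BMAL1 with CLOCK recognises, occurred 0 times (3.99% of stretches), and the heat shock element core GAANNTTC occurred 0 times (4.89% of stretches). A match says only that the letters are there. No promoter entry for Rbm3 was in the table.

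Libraries held 14471018 to 22785835 counts, of which immunoglobulin genes took 51.5 to 63.6%. The PC identity of the sort was clear: Igha, the constant region of the IgA heavy chain, was at 235000 CPM or more and Sdc1, which encodes the CD138 of the gate, at 462 CPM or more in every library. T cell, myeloid and non-plasma B cell markers summed to at most 50.3, 116 and 33.6 CPM. Cd79a, which loses 1 working copy through the Cre insertion, was at most 276 CPM in knockout and at least 386 CPM in control mice. Arntl was 7.80 ± 0.53 CPM in control mice at ZT0 (SD, n = 6), 4.54 ± 0.55 at ZT12 (n = 6), 4.87 ± 1.08 in knockout mice at ZT0 (n = 4) and 3.89 ± 0.70 at ZT12 (n = 5). At ZT0 it was lower in knockout mice (log2 −0.68, SE 0.17, unadjusted p = 0.000486 by edgeR, rank 9 by p of 20256 genes). An unadjusted p under 0.05 in that direction was reached by 2.24% of all genes. Over all genes the difference was not called (adjusted p = 0.926, edgeR). Counts over the whole Arntl gene include exons outside the floxed part. Xist counts showed that every group mixed mice with over 1000 and mice with under 1000 Xist counts. The library of knockout replicate 3 at ZT0 stood apart, with 6412 counts of Xist and 529 counts of Y-linked genes together, where other libraries had at most 84 of the second beside a high Xist count. The edgeR fits of Cirbp and Rbm3 were repeated without it. The permutation tests, count ratios, marker sums, gene lists and likeness ranks include it.

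Both genes were well expressed in IgA+ PCs. Raw counts were 770 to 1387 for Cirbp and 1157 to 2528 for Rbm3 in a library. Per deposited length of gene, 2604 bases for Cirbp and 4698 for Rbm3, the levels were alike. Which transcripts were expressed is not known, so this likeness rests on those lengths. The mean over 21 mice was 22.2 RPKM for Cirbp, above 94.4% of genes tested, and 23.0 RPKM for Rbm3, above 94.5%. In CPM (counts as a rate of the library total, adjusted by trimmed mean of M-values, TMM), which compare mice and not genes, Cirbp ran from 47.4 to 75.8 and Rbm3 from 71.5 to 162. The p-values below measure the spread between separate mice. In bulk RNA, fewer cells with a transcript and less transcript in each cell cannot be told apart.

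The first question was whether either gene differed by time of day in PCs with an intact clock. It was Rbm3 that did. In control mice at ZT0, replicates 1 to 6 had 95.01, 94.0, 87.4, 71.5, 97.1 and 90.2 CPM of Rbm3 (mean 89.2 ± 9.36, SD, n = 6), with a lowest value of 71.5, a median of 92.1 and a highest of 97.1. At ZT12 the values were 100.5, 133, 155, 162, 110.3 and 120.1 CPM (130.1 ± 24.5, n = 6), with a median of 126. The 2 groups did not overlap: the lowest mouse at ZT12 was above the highest at ZT0. This was so, in the same direction, for 0.745% of the 20256 genes tested. Rbm3 was 1.46-fold higher at ZT12 (95% limits 1.24 to 1.72), a log2 difference of 0.54 (SE 0.12, adjusted p = 0.0221 by edgeR over all genes, rank 71 by p), and the two-sided exact permutation test gave p = 0.00216, the smallest that 924 splits allow. Rbm3 was thus the 1 of the 2 members that was called, against 1.73% of all genes tested in either direction and 0.948% as higher.

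Cirbp did not show this difference. In control mice at ZT0 it was 65.0, 60.7, 57.8, 53.9, 59.8 and 55.6 CPM in replicates 1 to 6 (58.8 ± 3.99, n = 6). At ZT12 it was 62.0, 75.8, 47.6, 66.2, 60.5 and 61.3 CPM (62.2 ± 9.12, n = 6). The groups overlapped, and replicates 2 and 3 at ZT12 held the highest and the lowest value of the 12 control mice. The fitted log2 difference was 0.08 (SE 0.09, 95% limits −0.11 to 0.27, adjusted p = 0.690 by edgeR, exact permutation p = 0.433), so that a change of Cirbp beyond 1.21-fold up or 0.926-fold down lay outside these limits. The control mice with the highest Rbm3 at ZT12, replicates 3 and 4, had 47.6 and 66.2 CPM of Cirbp, near opposite ends of that group.

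**Figure D1:**
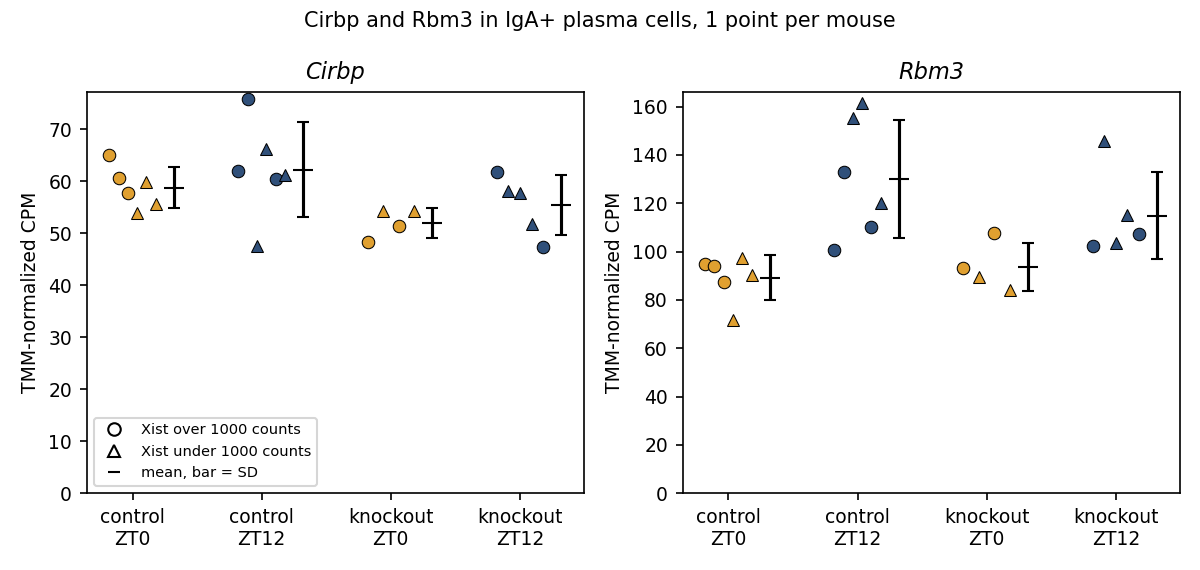
TMM-normalized CPM (y axes, from 0) of Cirbp and Rbm3 in each of the 21 mice, by genotype and Zeitgeber time; circles are mice with over 1000 Xist counts, triangles mice with under 1000, and the black mark and bar beside each group give the mean and SD. The 6 control mice at ZT12 lie above all 6 at ZT0 for Rbm3, and the 4 groups overlap for Cirbp.

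Rbm3 is X-linked, so the comparison was also read within mice of like Xist count. Among control mice with over 1000 Xist counts, Rbm3 was 87.4 to 95.01 CPM at ZT0 (n = 3) and 100.5 to 133 CPM at ZT12 (n = 3). Among those with fewer it was 71.5 to 97.1 CPM (n = 3) and 120.1 to 162 CPM (n = 3). In both classes the times did not overlap on the TMM scale, and the share of all genes so placed was not taken. By library size alone the class with over 1000 overlapped, with 92.3 to 101.9 CPM at ZT0 and 96.0 to 102.7 at ZT12. Knockout mice of that class had 93.1 to 107.6 CPM at ZT0 (n = 2) and 102.4 to 107.3 at ZT12 (n = 2) with TMM, which overlapped. Knockout mice with fewer had 84.2 to 89.6 (n = 2) and 103.4 to 145.7 CPM (n = 3). In control mice, with the Xist level as a covariate, the log2 difference was 0.54 (adjusted p = 0.0253, edgeR).

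In knockout mice the values of Rbm3 lay in the same order by time, with a smaller gap. At ZT0, replicates 1 to 4 had 93.1, 89.6, 107.6 and 84.2 CPM (93.7 ± 10.02, n = 4). At ZT12, replicates 1 to 5 had 102.4, 145.7, 103.4, 115.2 and 107.3 CPM (114.8 ± 17.98, n = 5). All 5 mice at ZT12 were above the median of ZT0, and the overlap came from replicate 3 at ZT0, the library with both Xist and Y-linked counts. The log2 difference was 0.29 (SE 0.14, 95% limits 0.01 to 0.57, adjusted p = 0.613 by edgeR), with an unadjusted p = 0.0401 that 3.91% of genes passed as higher, and an exact permutation p = 0.0635 (smallest possible 0.0159). Without that library it was 0.37 (SE 0.15, adjusted p = 0.916), and without replicate 2 at ZT12, the highest mouse of the genotype, it was 0.19 (SE 0.13, unadjusted p = 0.161, adjusted p = 0.701 by edgeR). In knockout mice edgeR called 0 genes of 20256 at an adjusted p under 0.05, while 1622 had an unadjusted p under 0.05 and DESeq2 called 47.

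Cirbp in knockout mice was 48.3, 54.2, 51.4 and 54.2 CPM at ZT0 (52.0 ± 2.83, n = 4) and 61.8, 58.2, 57.8, 51.8 and 47.4 CPM at ZT12 (55.4 ± 5.74, n = 5). The times overlapped, and ZT12 held the highest and the lowest value. The log2 difference was 0.09 (SE 0.11, 95% limits −0.13 to 0.32, adjusted p = 0.867 by edgeR, exact permutation p = 0.333), and 0.08 without replicate 3 at ZT0 (adjusted p = 0.983, edgeR).

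Whether the time-of-day difference itself depended on genotype was tested as an interaction. For Rbm3 the difference was smaller in knockout mice by a log2 of 0.25 as fitted (−0.25, SE 0.18, 95% limits −0.62 to 0.12, adjusted p = 0.603, edgeR), which did not pass. Its size varied with the mice and the scaling. The interaction of Rbm3 was −0.18 without knockout replicate 3 at ZT0 (adjusted p = 0.895), −0.35 without knockout replicate 2 at ZT12 (adjusted p = 0.405), −0.056 by library size alone (adjusted p = 0.942) and −0.16 with the immunoglobulin share as a covariate (adjusted p = 1, all by edgeR). For Cirbp the interaction was 0.01 (SE 0.14, 95% limits −0.29 to 0.31, adjusted p = 0.997, edgeR), and 0.003 without knockout replicate 3 at ZT0 and 0.21 by library size alone (adjusted p = 0.593). A difference between genotypes in the change of Rbm3 by time was therefore not detected, and the limits of the interaction include both no difference and loss of the whole change. Averaged over genotypes, Rbm3 was higher at ZT12 by a log2 of 0.42 (SE 0.09, 95% limits 0.23 to 0.60, adjusted p = 0.0200 by edgeR, exact permutation within genotypes p = 0.000155), where 0.805% of all genes tested were called, and 0.46 without knockout replicate 3 at ZT0 (adjusted p = 0.0144, edgeR). The same average for Cirbp was 0.09 (SE 0.07, 95% limits −0.06 to 0.23, adjusted p = 0.623, edgeR; exact permutation p = 0.192).

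**Figure D2:**
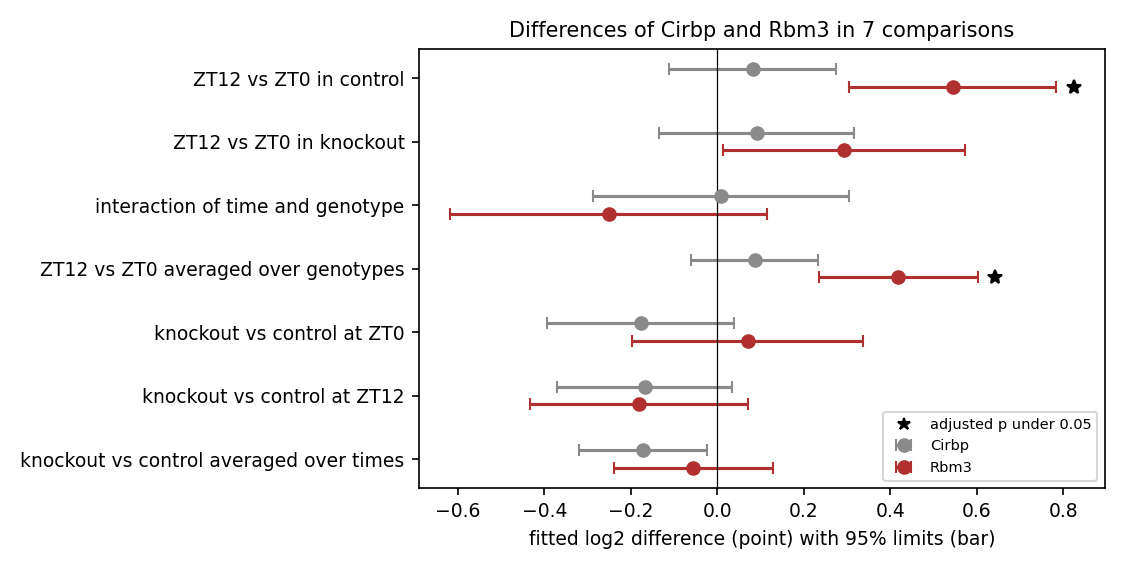
Fitted log2 differences (x axis) of Cirbp and Rbm3 in 7 comparisons (y axis), with bars for the 95% limits and a star where the adjusted p over all genes was under 0.05. Rbm3 is starred for time of day in control mice (0.54) and averaged over genotypes (0.42), and no other comparison of either gene is starred.

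The second question was whether loss of Arntl moved the level of either gene at a given time. These comparisons share their mice with those above. Neither gene was called, and 0.00987% of all genes tested were at ZT0 and 0.0148% at ZT12. Cirbp was lower in knockout mice at both times as fitted, by a log2 of −0.18 at ZT0 (SE 0.11, adjusted p = 0.926, edgeR) and −0.17 at ZT12 (SE 0.10, adjusted p = 0.609, edgeR). At ZT0 all 4 knockout mice were below the median control mouse and 2 of 4 below the lowest (exact permutation p = 0.0286, smallest possible 0.00952). At ZT12 1 of 5 knockout mice was above the control median (exact permutation p = 0.182). Averaged over times, Cirbp differed by −0.17 (SE 0.07, 95% limits −0.32 to −0.02, unadjusted p = 0.0245, adjusted p = 1 by edgeR, exact permutation p = 0.0143). Without knockout replicate 3 at ZT0, Cirbp differed by −0.17 at ZT0 and −0.17 averaged over times. By library size alone it differed by −0.23 at ZT0, −0.020 at ZT12 (exact permutation p = 0.810) and −0.12 averaged over times (exact permutation p = 0.0589), so the lower level at ZT12 rested on the scaling. An unadjusted p under 0.05 in that direction was reached by 2.24% of all genes, and 0.0346% were called. Rbm3 differed by 0.07 at ZT0 (SE 0.13, adjusted p = 0.970), −0.18 at ZT12 (SE 0.12, adjusted p = 0.661) and −0.06 averaged over times (SE 0.09, adjusted p = 1, all by edgeR). The exact permutation p for Rbm3 was 0.524 at ZT0 and 0.255 at ZT12, and without knockout replicate 3 the fitted value turned to −0.003 at ZT0 and was −0.09 averaged over times. On the 2 genes, 12 exact permutation tests were made on the TMM scale and 12 more by library size alone, and their p-values are unadjusted.

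Ordered by mean CPM, Rbm3 ran from control ZT0 (89.2) and knockout ZT0 (93.7) to knockout ZT12 (114.8) and control ZT12 (130.1). The groups next to each other at the same ZT did not differ beyond their spread. For Cirbp the order was knockout ZT0 (52.0), knockout ZT12 (55.4), control ZT0 (58.8) and control ZT12 (62.2), and the ranges of all neighbours overlapped.

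Scaling touched both genes. The immunoglobulin share was 51.5 to 53.4% in control mice at ZT0 and 53.4 to 63.6% at ZT12. When counts were divided by library size alone, without TMM factors, the median log2 difference of all genes in control mice moved from 0.01 to −0.20. Rbm3 was then 0.33 (SE 0.13, adjusted p = 0.129 by edgeR), its CPM overlapped between times in control mice (exact permutation p = 0.0758), and they did not overlap in knockout mice (exact permutation p = 0.0159, the smallest possible; 1.22% of genes on the TMM scale were higher without overlap there). Relative to the median of all genes, Rbm3 was 0.54 higher with TMM and 0.53 higher with library size. Cirbp turned from 0.08 to −0.15 in control mice by library size, and from 0.08 to 0.05 relative to the median. With immunoglobulin genes removed before scaling, Rbm3 was 0.55 and Cirbp 0.08.

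The ratio of the raw counts within a library needs no scaling. Rbm3 gave 1.52 ± 0.11 counts for each count of Cirbp in control mice at ZT0 (range 1.33 to 1.62, n = 6) and 2.14 ± 0.62 at ZT12 (1.62 to 3.26, n = 6). Control replicates 3 and 4 at ZT12 reached 3.26 and 2.44, and the other 4 lay between 1.62 and 1.96. In knockout mice the ratio was 1.81 ± 0.25 at ZT0 (1.55 to 2.10, n = 4) and 2.09 ± 0.35 at ZT12 (1.66 to 2.50, n = 5). The control groups met at 1.62 and the knockout groups overlapped. No test was made of this ratio.

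**Figure D3:**
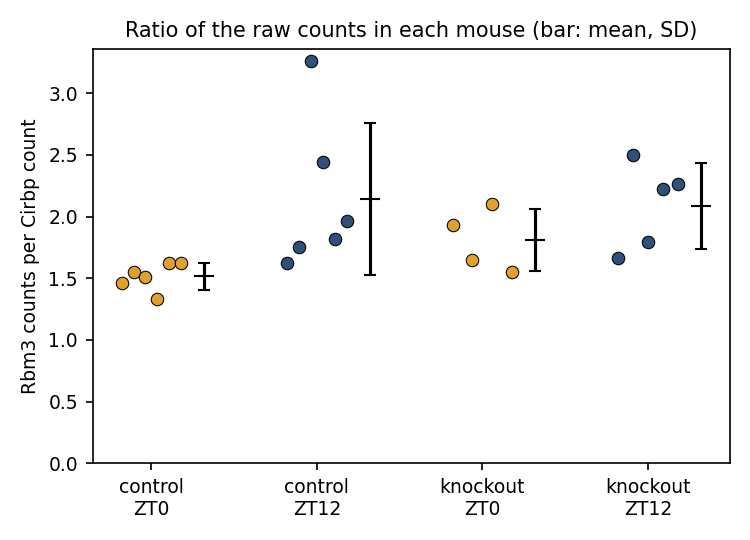
Rbm3 counts for each Cirbp count (y axis, from 0) in each mouse, by genotype and Zeitgeber time, with the mean and SD beside each group. Control mice at ZT0 stay at or under 1.62, and the highest ratio, 3.26, is a control mouse at ZT12.

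The call of Rbm3 in control mice was near its threshold. It was lost in 6 of the 21 fits that left out 1 mouse: without control replicate 1, 2, 3 or 4 at ZT0, or replicate 3 or 4 at ZT12, with adjusted p from 0.0503 to 0.0716 by edgeR and a log2 difference from 0.48 to 0.61 over all 21 fits. It was also lost when only the 12 control mice were fitted (0.54, adjusted p = 0.0581), with the immunoglobulin share as a covariate (0.47, adjusted p = 0.336), and with epithelial markers as a covariate (0.53, adjusted p = 0.0568). DESeq2 called it (0.57, adjusted p = 0.000663).

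**Figure D4:**
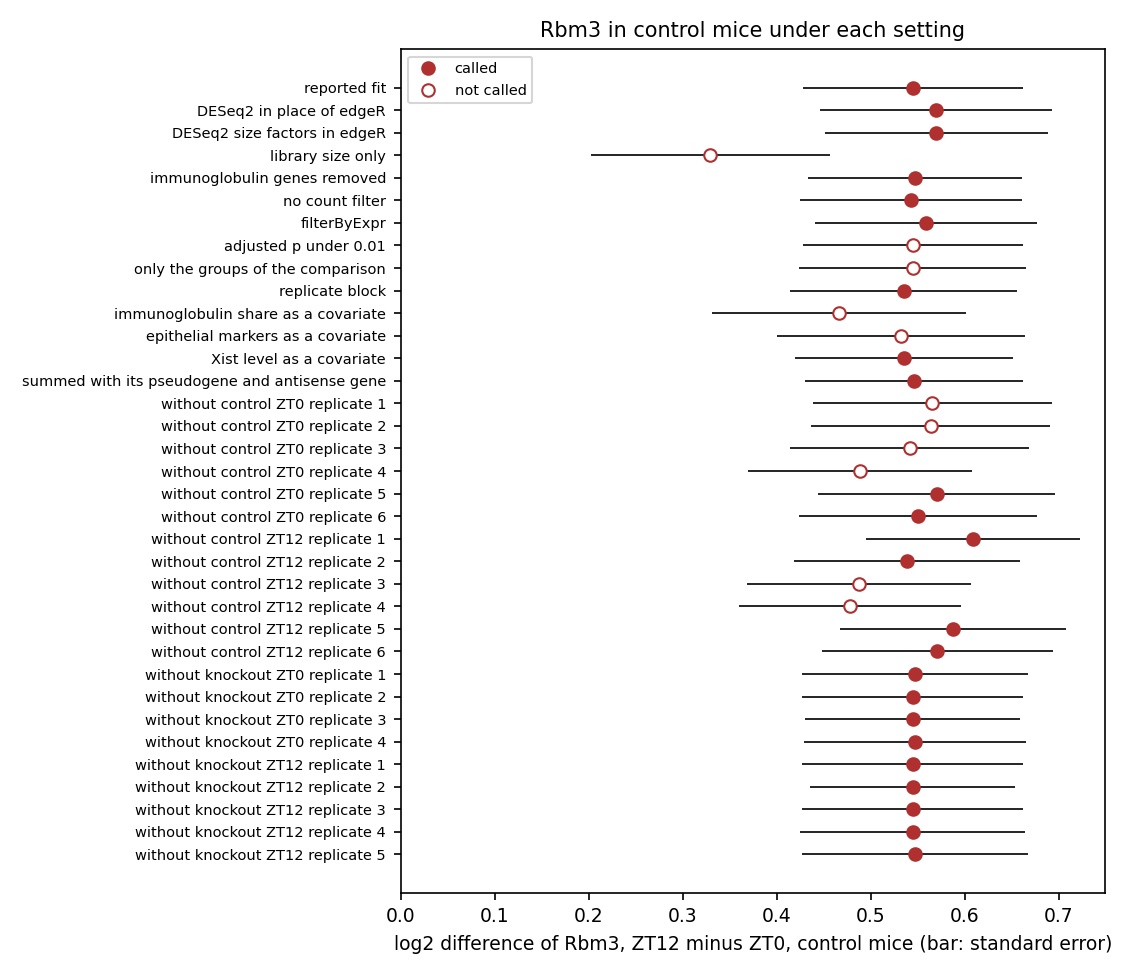
Log2 difference of Rbm3 between ZT12 and ZT0 in control mice (x axis, from 0; bars are standard errors) in the reported fit and under each alternative (y axis); filled points were called and open points were not. All points lie between 0.33 and 0.61, and the lowest is the fit scaled by library size alone.

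Markers of other cells were looked up, although the study's protocol has steps meant to remove such cells: the epithelium was stripped with EDTA and DTT before digestion, and PCs were gated among live CD45+ B220- IgD- cells. The 11 epithelial markers summed to 55.0 to 195 CPM in control mice at ZT0 and 73.5 to 797 CPM at ZT12, and to 71.2 to 85.0 and 66.9 to 474 CPM in knockout mice. All 11 had counts in the series. Epcam, an epithelial adhesion molecule, was at 47.8 CPM or more in every library, and Krt20 and Fabp1, of mature enterocytes, were at 0 in at least 1 library. The mouse with 797 CPM, control replicate 5 at ZT12, had 110.3 CPM of Rbm3, and the mouse with the most Rbm3, replicate 4, had 141 CPM of epithelial markers. Immediate early genes of tissue dissociation, 11 in all, summed to 3050 to 6610 CPM in control mice at ZT0 and 3110 to 8260 CPM at ZT12, with medians of 4370 and 6900 CPM. In knockout mice they summed to 3480 to 9530 CPM at ZT0 and 2800 to 5330 CPM at ZT12, and the medians lay in the other order, 5010 and 3130 CPM. The part of these cells and of dissociation, which was done at 37 °C, in the difference of Rbm3 was not tested beyond the epithelial covariate.

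Reads of near-identical or overlapping genes could be split between rows. Rbm3-ps, a processed pseudogene of Rbm3 of 465 bases at chr1:150265535-150265999, had 33 to 103 counts in a library. It was 2.73 ± 0.48 CPM at ZT0 and 4.84 ± 1.26 CPM at ZT12 in control mice (n = 6 each), and 2.88 ± 0.47 (n = 4) and 4.35 ± 0.96 (n = 5) in knockout mice. Rbm3-ps rose with Rbm3 at ZT12 in control mice (log2 0.82, SE 0.20, adjusted p = 0.0414, edgeR) and averaged over genotypes (0.71, SE 0.16, adjusted p = 0.0248, edgeR). Its counts may be reads of Rbm3, so it is not separate evidence. Rbm3os, an antisense gene that overlaps 452 bases of Rbm3, had 8 to 28 counts and was not called. 1600002K03Rik, which follows Cirbp on the same strand without overlap, had 36 to 85 counts and was not called. With the pseudogene and the antisense gene added to Rbm3, the difference in control mice was 0.55 (adjusted p = 0.0209, edgeR).

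Cirbp and Rbm3 did not vary together from mouse to mouse. With group means removed, r was 0.008 (permutation p = 0.981) and rho 0.15 (permutation p = 0.558) over 21 mice, which share the scaling of their libraries. Without the 2 mice farthest from the median of Cirbp, r was 0.30 (permutation p = 0.248). Within control mice, r was 0.76 at ZT0 and −0.17 at ZT12 (n = 6 each, given as a description).

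Genes most like each member over all 21 mice, by r of log2 CPM among 8176 genes with a mean of at least 5 CPM, were not the same. Nearest to Rbm3 was Eef1a1, the elongation factor that brings aminoacyl-tRNA to the ribosome (r = 0.88). It was followed by Gdap2 (0.87), Eif3f, a subunit of the initiation factor eIF3 (0.86), and Rpl4 and Rpl3, proteins of the large ribosomal subunit (0.85 each). In control mice at ZT12 all 5 were called higher, by a log2 of 0.41 for Eef1a1, 0.64 for Gdap2, 0.64 for Eif3f, 0.59 for Rpl4 and 0.61 for Rpl3 (adjusted p from 0.00905 to 0.0300, edgeR). Of all genes tested, 0.948% were called higher there. These 5 were picked for likeness over mice of both times, so their calls are not separate evidence. Their likeness to Rbm3 includes the shared difference by time. Nearest to Cirbp were Grina (r = 0.78), Bckdk, the kinase of the branched-chain ketoacid dehydrogenase (0.78), Rnase6 (0.73), Exosc5, a subunit of the RNA exosome (0.73), and Adssl1, an enzyme of AMP synthesis (0.73), none of them called by time. Rbm3 was 2103rd by likeness to Cirbp, and Cirbp 2644th by likeness to Rbm3 (r = 0.20).

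Genes listed as heat-induced, the counterpart of the cold-inducible pair, varied widely. The list also holds genes expressed without heat, such as the constitutive Hspa8. None of the 20 was called in any of the 7 comparisons by edgeR, and DESeq2 called 1, Hsph1, which encodes the HSP110 chaperone, averaged over genotypes (log2 1.47, SE 0.45, adjusted p = 0.0321), where it called 2.80% of genes with an adjusted p as higher. In control mice 19 of 20 were higher at ZT12 as fitted (median log2 0.40, against 0.01 for all genes tested), 1 of them at an unadjusted p under 0.05 (9.19% of all genes were). In knockout mice 18 of 20 were higher (median 0.69), 8 at an unadjusted p under 0.05 (3.91% of all genes), and averaged over genotypes 13 were (8.59% of all genes). By library size alone 15 of 20 were higher in control mice (median 0.16, against −0.20 for all genes). In knockout mice 18 of 20 were (median 0.69, against −0.02 for all genes). Hspa8, the constitutive HSC70 chaperone, was 427 ± 179 CPM in control mice at ZT0 and 677 ± 222 CPM at ZT12 (log2 0.67, SE 0.32, adjusted p = 0.278). Chordc1, a co-chaperone of HSP90, differed by 0.40 (SE 0.18, adjusted p = 0.236), and Cacybp by 0.28 (SE 0.14, adjusted p = 0.291). Summed over the list, levels were 1310 to 3720 CPM at ZT0 and 1610 to 4760 CPM at ZT12 in control mice, with overlap. Between control mice at ZT0, the mouse with the highest sum, replicate 4, had the lowest Rbm3 of all 21 mice (71.5 CPM). In knockout mice at ZT12, however, replicates 1 and 4, with the highest sums of that group (5719 and 4575 CPM), had 102.4 and 115.2 CPM of Rbm3, the lowest and the second highest of the 5.

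CLK and SRPK kinases and the SR proteins they phosphorylate form the splicing machinery through which temperature is known to act on Cirbp transcripts. None of the 20 was called by edgeR, and DESeq2 called 4 as higher at ZT12 in control mice, Clk4, Srsf2, Srsf5 and Tra2a, against 5.02% of the 12381 genes to which it gave an adjusted p. By edgeR in control mice 8 of 20 had an unadjusted p under 0.05, all higher at ZT12, against 9.19% of all genes tested, and 1 of 20 did so among knockout mice. The smallest p were those of Tra2a (log2 0.39, SE 0.11, adjusted p = 0.0748) and Tra2b (0.26, SE 0.10, adjusted p = 0.165), SR-like splicing activators, and of the kinase Clk4 (0.30, SE 0.09, adjusted p = 0.0862, all by edgeR). In knockout mice Tra2a differed by −0.04, Tra2b by 0.05 and Clk4 by 0.06. The sign of the list median turned with the scaling: in control mice it was 0.12 with TMM and −0.10 by library size alone. The medians of all genes tested were 0.01 and −0.20, so the list lay above both. By library size alone 0 of 20 were higher and 3 lower at an unadjusted p under 0.05. The share of all genes at that threshold was not taken on that scale.

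Of 13 other RNA-binding proteins related by their domains, none was called by edgeR on the TMM scale. DESeq2 called 1 as lower averaged over genotypes (Hnrnpa2b1, −0.20, adjusted p = 0.0444, with 1.96% of genes called lower). By edgeR in control mice 1 was higher and 1 lower at an unadjusted p under 0.05 (9.19% and 8.86% of all genes). In knockout mice 0 were higher and 2 lower (3.91% and 4.09% of all genes). The median in control mice was 0.06 with TMM and −0.14 by library size alone, against 0.01 and −0.20 for all genes tested. By library size alone edgeR called 1 of 13 averaged over genotypes, where 201 of all genes were called. There 5 of 13 were lower and 0 higher at an unadjusted p under 0.05. In control mice 4 were lower and 0 higher by library size. The share of all genes at that threshold was not taken on that scale. Hnrnpa3, which packages nascent RNA, was 0.28 higher at ZT12 in control mice (SE 0.10, adjusted p = 0.154, edgeR) and Taf15 0.25 (SE 0.12, adjusted p = 0.279). Of 7 known partners, regulators or targets, 6 were tested, and none was called by edgeR or DESeq2, with 1 of 6 lower in control mice at an unadjusted p under 0.05 by edgeR (8.86% of all genes); the neurotrophin receptor gene Ntrk2 had 2 counts in all. Gsk3b, a kinase reported to phosphorylate CIRBP, differed by −0.43 in control mice (SE 0.17, adjusted p = 0.199) and 0.29 in knockout mice (SE 0.20, adjusted p = 0.735). Prmt1, which methylates the glycine-rich tail of CIRBP, differed by 0.19 in control mice (adjusted p = 0.323), and Tnpo1, the importin that carries CIRBP into the nucleus, by −0.15 (adjusted p = 0.605, all by edgeR).

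**Figure D5:**
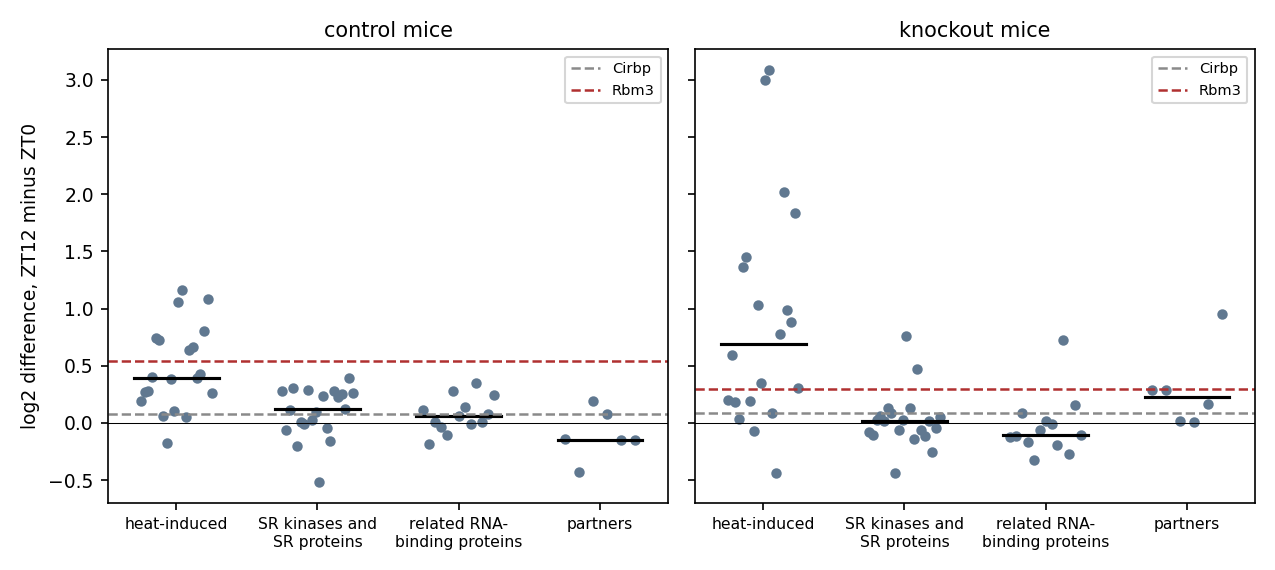
Log2 difference between ZT12 and ZT0 (y axis) of each tested gene of 4 lists (x axis) in control mice and in knockout mice; points are genes, black lines are list medians, and dashed lines mark Cirbp and Rbm3. No point passed the adjusted test of edgeR, and the genes of the heat-induced list spread up to 1.16 in control and 3.09 in knockout mice.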

How the data were processed

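The authors deposited whole-number counts of reads per gene, not normalized, from poly-A RNA of sorted IgA+ PCs (150-base paired-end reads), with gene coordinates that equal GENCODE M21 (GRCm38) for 52056 of 53620 matched genes. The aligner, the counter and the use of strand are not given in the sources used here. The labels name DESeq2 and DESeq among the submitters' tools.

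Genes with a total count under 10 were removed. TMM factors and edgeR 4.0.16 (R 4.3.3, robust quasi-likelihood, means of 4 groups over all 21 mice) gave log2 differences, standard errors and 95% limits, and Benjamini-Hochberg adjusted p over 20256 genes, called under 0.05. Exact permutation tests were two-sided and enumerated all splits of the mice, within genotype or time for averaged comparisons. The correlation used 100000 permutations within groups. RPKM is TMM CPM per 1000 bases of the deposited gene length. Alternatives were DESeq2 1.42.0, other scaling, filters, thresholds, covariates, a replicate block and leaving out each mouse, and the Xist covariate, the sums with neighbouring genes and the DESeq2 and library size counts of the lists were added after the data were seen. The fit was tested on simulated data. 46 pairs of libraries within groups differed by more than sampling noise (chi-square per gene 29.5 or more).

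The members and lists were chosen with earlier results of these data known. Named were Cirbp and Rbm3, Arntl and Cd79a as the check of the knockout, the 3 genes of each list with the smallest p in control mice (1 of these is not reported here), the 5 genes most like each member, and genes that share reads with or adjoin a member; markers named in the text were picked after their values were seen.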

Additional observations from a re-analysis of the deposited data

How the results depend on the processing

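Of 315 values of Cirbp and Rbm3 with 1 mouse left out, their correlation included, 290 kept their direction and side of the threshold, 8 lost a call and 17 changed sign. Of 178 values under other settings, 160, 8 and 10 did. The cause was not tested unless the setting itself shows it.

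Rbm3 at ZT12 in control mice was not called with library size alone (0.33, adjusted p = 0.129), at an adjusted p under 0.01 (0.54), with only the control groups fitted (0.54, adjusted p = 0.0581), or with the immunoglobulin share (0.47, adjusted p = 0.336) or epithelial markers (0.53, adjusted p = 0.0568) as a covariate. Adjusted p over its other settings ran from 0.000663 to 0.336. Leaving out 1 mouse gave 0.48 to 0.61. Averaged over genotypes it was not called with library size alone (0.30, adjusted p = 0.125), at an adjusted p under 0.01 (0.42) or with epithelial markers as a covariate (0.41, adjusted p = 0.0924), and without knockout replicate 1 (adjusted p = 0.0504) or 4 (adjusted p = 0.0633) at ZT0. Leaving out 1 mouse gave 0.37 to 0.46. Rbm3 between genotypes at ZT0 ran from −0.0034 to 0.13.

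Cirbp changed sign by time in control mice with library size alone (−0.15) and the immunoglobulin share (−0.069), and averaged over genotypes with library size alone (−0.041). Its interaction, 0.01, changed sign with DESeq2 (−0.016), its size factors (−0.016), filterByExpr (−0.010), epithelial markers (−0.0027) and its neighbouring gene added (−0.0040), and ran from −0.057 to 0.067 with 1 mouse left out. The correlation of the genes was −0.051 with library size alone, −0.013 with immunoglobulin genes removed and −0.087 to 0.33 with 1 mouse left out.

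Over all genes, 350 were called by time in control mice. There were 1052 with DESeq2, 14 under 0.01, 38 with only those groups, 108 with epithelial markers, 0 with the immunoglobulin share by edgeR, and 31 (without control replicate 2 at ZT0) to 934 (without control replicate 1 at ZT12) with 1 mouse left out. In knockout mice 0 were called, 47 with DESeq2, 2 with only those groups, 1 with no count filter, 1 with the immunoglobulin share and 0 to 1 with 1 mouse left out. The interaction had 0 calls by edgeR, 4 with DESeq2 and 0 to 1 with 1 mouse left out. Averaged over genotypes 163 were called, 664 with DESeq2, 22 under 0.01, 69 with epithelial markers and 96 to 292 with 1 mouse left out. With library size alone, 10.8% of calls in control mice were higher at ZT12 against 54.9% with TMM, and 6.47% against 42.3% averaged over genotypes.

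Replicate numbers did not pair the mice: of 28 same-numbered pairs 10 had r over 0.1 (−0.41 to 0.41), and 5 of 21 mice correlated best with their own number. With a replicate block, 183 genes were called in control mice and Rbm3 was 0.53 (adjusted p = 0.0365, edgeR), and no call of Cirbp or Rbm3 changed. Neither check can see sets of mice that run across numbers. The deposited columns pass through the 4 groups more than once, with replicate numbers running on. What a pass stands for is not given, and its part was not tested. The ZT12 mice of the second pass, control replicates 3 and 4 and knockout replicate 2, had the highest Rbm3 (155, 162 and 145.7 CPM). The ZT0 mice of that pass ran from 71.5 to 107.6 CPM. On the TMM scale the ZT12 mice of every pass were above its ZT0 mice, and the share of all genes so ordered was not taken. By library size alone this did not hold. In the first pass control replicate 2 had 95.98 CPM at ZT12 and control replicate 2 had 101.9 at ZT0. In the last pass control replicate 5 at ZT12 had 97.7 CPM and control replicate 6 at ZT0 had 103.3.

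At counts of 770 and more counting error is small for either gene, but its part in the spread between mice was not separated.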
